A study of Rattus norvegicus with 8 samples.

Results

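The solute carrier genes of the families Slc2a, Slc5a, Slc16a and Slc27a were examined in the brains of rats that drank fructose on an omega-3 diet. Members were all genes whose symbol in the deposited tables begins with one of these family names followed by a digit, and the values of all loci under a symbol were added up. This gave 42 genes of the 15892 symbols found in both tables, with 11 in Slc2a, 12 in Slc5a, 13 in Slc16a and 6 in Slc27a. All 42 were listed for both tissues, and all of their 376 status entries were OK. The libraries came from the hypothalamus (4) and the hippocampus (4) of male Sprague Dawley rats, an outbred strain, which were 2 months old at the start. Every library, of either tissue, came from animals that had 15% fructose to drink and an omega-3 diet, labelled DHA for docosahexaenoic acid, for 6 weeks. No library of another diet was analysed here, so nothing below measures an effect of fructose or of DHA. Whether each library was a separate animal is not stated in the labels, and the spread given is that between libraries, which may be partly technical.

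These families carry the small molecules that feed brain cells. Slc2a genes encode the GLUT proteins, which let hexoses cross membranes down their gradient, and GLUT5, encoded by Slc2a5, is the member known for fructose. Slc5a genes encode sodium-driven carriers of glucose, myo-inositol, choline, iodide and vitamins. Slc16a genes encode the MCT proteins, some of which move lactate, pyruvate and ketone bodies between blood, glia and neurons, while others carry amino acids or creatine. Slc27a genes encode the FATP proteins, which take up long-chain fatty acids and activate them as acyl-CoA.

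All values below are FPKM, fragments per kilobase of transcript scaled to the size of the library, divided by 1 factor for each library computed jointly over both tables, and errors are SD over 4 libraries unless named otherwise. Each tissue has a table of its own, normalised apart, so tissue and table cannot be told apart and levels were set side by side without a test. Some genes used by every cell lay far apart between the tables, such as the glycolytic enzyme gene Gapdh at 581 ± 125 FPKM in hypothalamus and 6.19 ± 1.66 FPKM in hippocampus. Higher or lower is used of a member whose mean log2(FPKM + 1) differed between the tissues by at least 1 (2-fold on that scale, which understates the change of low genes) and whose 4 libraries of one tissue all lay above those of the other. The labels fitted the tissues by their neuron markers. The 8 hypothalamic neuron markers, vasopressin and oxytocin genes among them, summed to 5712 to 10739 FPKM in hypothalamus libraries and 3.28 to 10.2 FPKM in hippocampus libraries, and the 8 markers of hippocampal neurons to 67.2 to 82.9 FPKM in hypothalamus and 1055 to 1757 FPKM in hippocampus. Fibcd1, a hippocampal marker, was listed at 0 in every library. Read numbers were unknown. By the steps among low values, the worth of 1 fragment in replicate 2 over that in replicate 3 was 0.931 in hypothalamus and 1.36 in hippocampus, while replicate 1 of neither tissue shared such steps. Hippocampus replicates 3 and 4 stood apart in genes of the choroid plexus, and results that change without them are given below. In bulk tissue, fewer cells of a type and less RNA per cell cannot be told apart.

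Of 27 compared carriers, 4 passed as higher or lower between the tissues and 23 did not. Members were compared when their mean over the 8 libraries was at least 1 FPKM, and 15 members were below that. Slc27a3, Slc16a11 and Slc27a2 were higher in hypothalamus and Slc16a14 was lower. These counts were no larger than the background, since by the same measure 13.3% of the 10554 genes compared lay higher in hypothalamus and 13.4% lay lower. Libraries of the tissues did not overlap for 8 of the 27 members and for 53.4% of all genes. The median difference was 0.22 (log2) over the 27 members and -0.04 over all genes. The order of the carriers by mean level was alike in the tissues, with a Spearman rho of 0.80 between tissue means across the 27 genes, given as a description. Slc2a1 stood above all other members in every library of both tissues. Below it the order was close, and 24 of 26 neighbouring pairs in hypothalamus and 24 of 25 in hippocampus overlapped between their libraries.

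**Figure D1:**
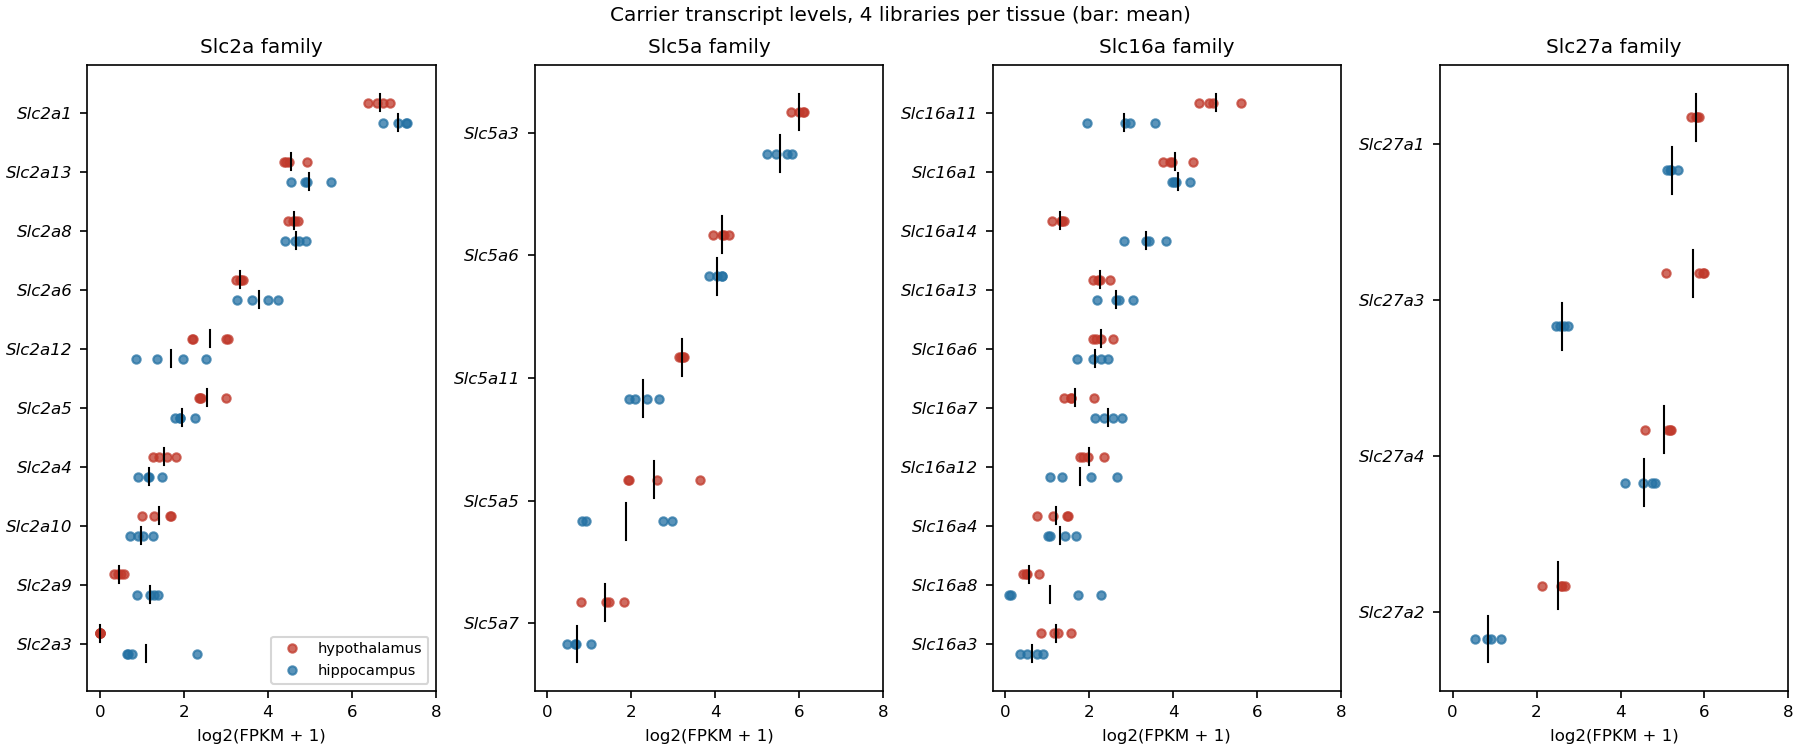
Levels of 29 of the 30 carriers with a mean of at least 1 FPKM in a tissue, as log2(FPKM + 1) per library, by family; points are libraries (hypothalamus above hippocampus for each gene) and bars are means of 4. Slc2a1 is highest in both tissues, and Slc27a3, Slc16a11 and Slc27a2 lie apart to the right in hypothalamus while Slc16a14 lies apart to the right in hippocampus.

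**Figure D2:**
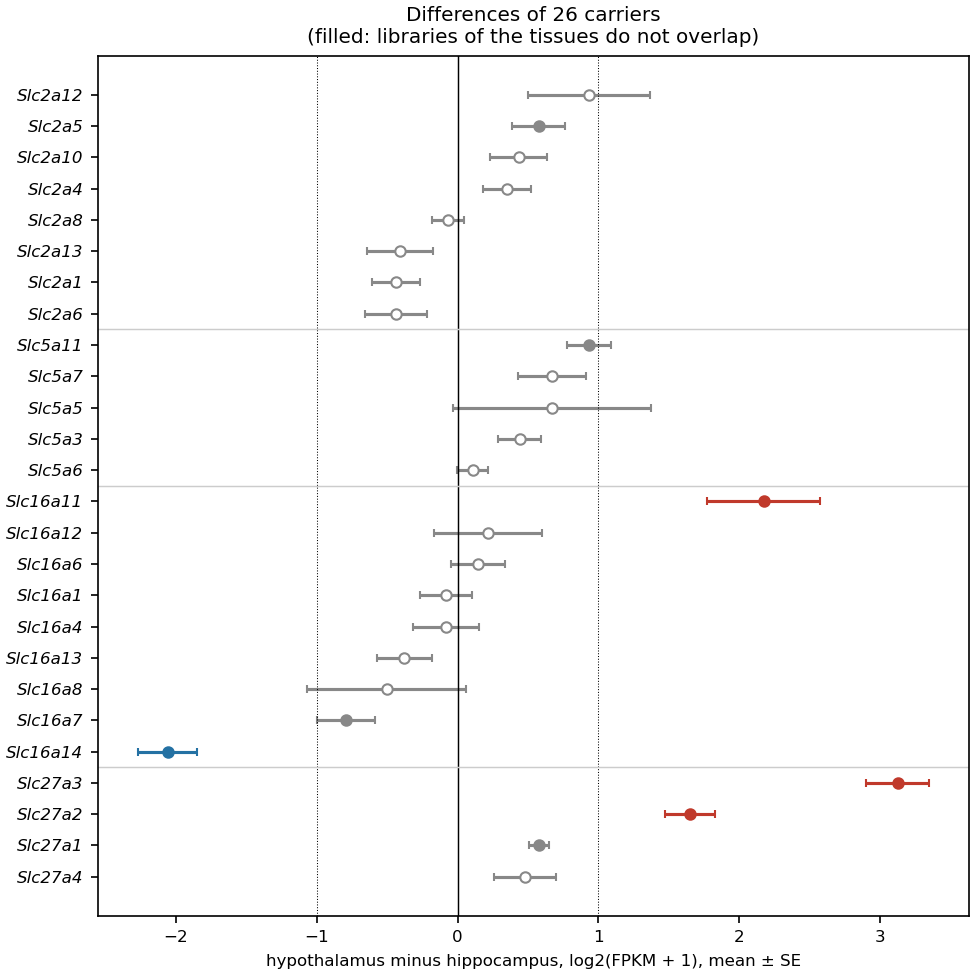
Difference between the tissues for 26 of the 27 compared carriers, hypothalamus minus hippocampus on the log2(FPKM + 1) scale, as mean ± SE (n = 4 libraries each); filled points have libraries that do not overlap between tissues, red and blue points are called higher and lower, and dotted lines mark a difference of 1. The called members are Slc27a3 at 3.13, Slc16a11 at 2.18, Slc27a2 at 1.65 and Slc16a14 at -2.06.

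Among the GLUT genes, Slc2a1 made up most of the summed level of the family, as listed, in each library. Slc2a1 encodes GLUT1, the glucose carrier of the blood-brain barrier and of astrocytes. It was at 83.2, 96.8, 119.8 and 106 FPKM in hypothalamus libraries 1 to 4 and at 136, 105, 155 and 157 FPKM in hippocampus libraries 1 to 4. The tissues overlapped, with hippocampus replicate 2 below 2 of the hypothalamus libraries, and the difference was -0.44 ± 0.17 (SE). Slc2a1 supplied 59.0% ± 5.19 of the summed GLUT level in hypothalamus and 63.1% ± 5.59 in hippocampus. That sum takes Slc2a3, encoding GLUT3, at its listed values, which may be failed estimates, so shares of it are of the listed level only. The summed level of 10 endothelial markers ran the same way, at 93.8 to 137 FPKM in hypothalamus and 163 to 206 FPKM in hippocampus. Of these markers 1 was higher, 4 lower and 5 neither, while 13.3% of all genes were higher and 13.4% lower. The gap between the sums is mainly that of Cldn5, at 33.8 FPKM in hypothalamus and 77.5 FPKM in hippocampus, and Esam, at 16.3 and 43.6 FPKM. Pecam1, Cdh5 and Vwf had the higher mean in hypothalamus, so the set did not run 1 way. None of the 10 markers was at 0 in either tissue, and their part in the Slc2a1 values was not tested.

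Slc2a5, the fructose carrier, was a minor GLUT transcript in both tissues. It was at 4.21, 4.30, 7.04 and 4.15 FPKM in hypothalamus against 2.77, 2.72, 3.81 and 2.44 FPKM in hippocampus. Every hypothalamus library lay above every hippocampus library, but the difference of 0.57 ± 0.19 (SE) was under the limit of 1, and such separation was seen for 53.4% of all genes. Its share of the summed GLUT level was 2.85% ± 0.61 in hypothalamus and 1.35% ± 0.25 in hippocampus. In rodent brain the gene is known as a marker of microglia. The 10 microglia markers summed to 272 to 379 FPKM in hypothalamus and 176 to 296 FPKM in hippocampus, with 1 higher, none lower and none at 0, and their part in Slc2a5 was not tested. The promoter of Slc2a5, from 250 bases before to 50 after the start of the gene in RefSeq (build GRCr8, chr5:165865929-165866228, plus strand), is shown because this is the carrier of the sugar the animals drank; it held no copy of CACGTG, the E-box, of which carbohydrate response elements hold a pair of variants.
Slc2a5: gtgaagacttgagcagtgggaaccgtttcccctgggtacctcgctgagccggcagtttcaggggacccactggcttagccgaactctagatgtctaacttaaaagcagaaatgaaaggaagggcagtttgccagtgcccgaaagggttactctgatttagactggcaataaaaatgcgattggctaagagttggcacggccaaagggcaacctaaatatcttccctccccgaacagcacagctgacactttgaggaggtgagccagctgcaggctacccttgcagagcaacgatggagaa

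The E-box was searched in the same 300 bases of 33469 promoters, where 6.42% held it. Of the 42 members, 32 had a promoter in that table and 3 of these held it. No match says only that these letters are absent from this window. Slc2a8, encoding the intracellular GLUT8, was at 23.5 ± 1.57 FPKM in hypothalamus and 24.8 ± 3.60 FPKM in hippocampus, a difference of -0.07 ± 0.11 (SE). Slc2a9, encoding a carrier of urate and hexoses, was at 0.27 to 0.49 FPKM in hypothalamus and 0.84 to 1.62 FPKM in hippocampus, without overlap but below the level compared. Slc2a2, the low-affinity GLUT2 of liver and islets, did not exceed 0.071 FPKM in any library.

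Slc2a3 encodes GLUT3, known as the main glucose carrier of neurons. It was listed at 0 in all 4 hypothalamus libraries and at 3.94, 0.57, 0.70 and 0.60 FPKM in hippocampus libraries 1 to 4. Both tables split it over a pair of loci. The first, listed between Gdf3 and C3ar1, was at 1.61 FPKM in hippocampus replicate 1 and at 0 to 0.029 FPKM in the other 3, and the second at 2.33 FPKM in replicate 1 and 0.57 to 0.67 FPKM in the others. A listed 0 may be a failed estimate, and 15 symbols were at 0 in all hypothalamus libraries with at least 0.5 FPKM in every hippocampus library, and 20 the other way round. No level of GLUT3 transcripts is therefore read from these tables.

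The remaining GLUT genes overlapped between the tissues. Slc2a13, encoding a proton-driven myo-inositol carrier of neurons, was at 22.9 ± 4.43 FPKM in hypothalamus and 31.2 ± 9.25 FPKM in hippocampus. Slc2a6, encoding a GLUT of lysosomes, was at 9.14 ± 0.50 FPKM in hypothalamus and 13.2 ± 4.15 FPKM in hippocampus. Slc2a4, encoding the insulin-responsive GLUT4, was at 1.90 ± 0.49 FPKM in hypothalamus and 1.27 ± 0.37 FPKM in hippocampus, and Slc2a10 at 1.71 ± 0.60 FPKM in hypothalamus and 0.99 ± 0.31 FPKM in hippocampus. Summed over the family, GLUT transcripts stood at 171 ± 11.8 FPKM in hypothalamus and 218 ± 20.8 FPKM in hippocampus, a difference of -0.34 ± 0.09 (SE). These sums take Slc2a3 as listed, so the unread level of GLUT3 transcripts limits them. All hypothalamus sums were at or below 187.02 FPKM and all hippocampus sums at or above 187.04 FPKM, and they overlapped with values as deposited, where the difference was -0.11, and with upper-quartile scaling, where it was -0.23.

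**Figure D3:**
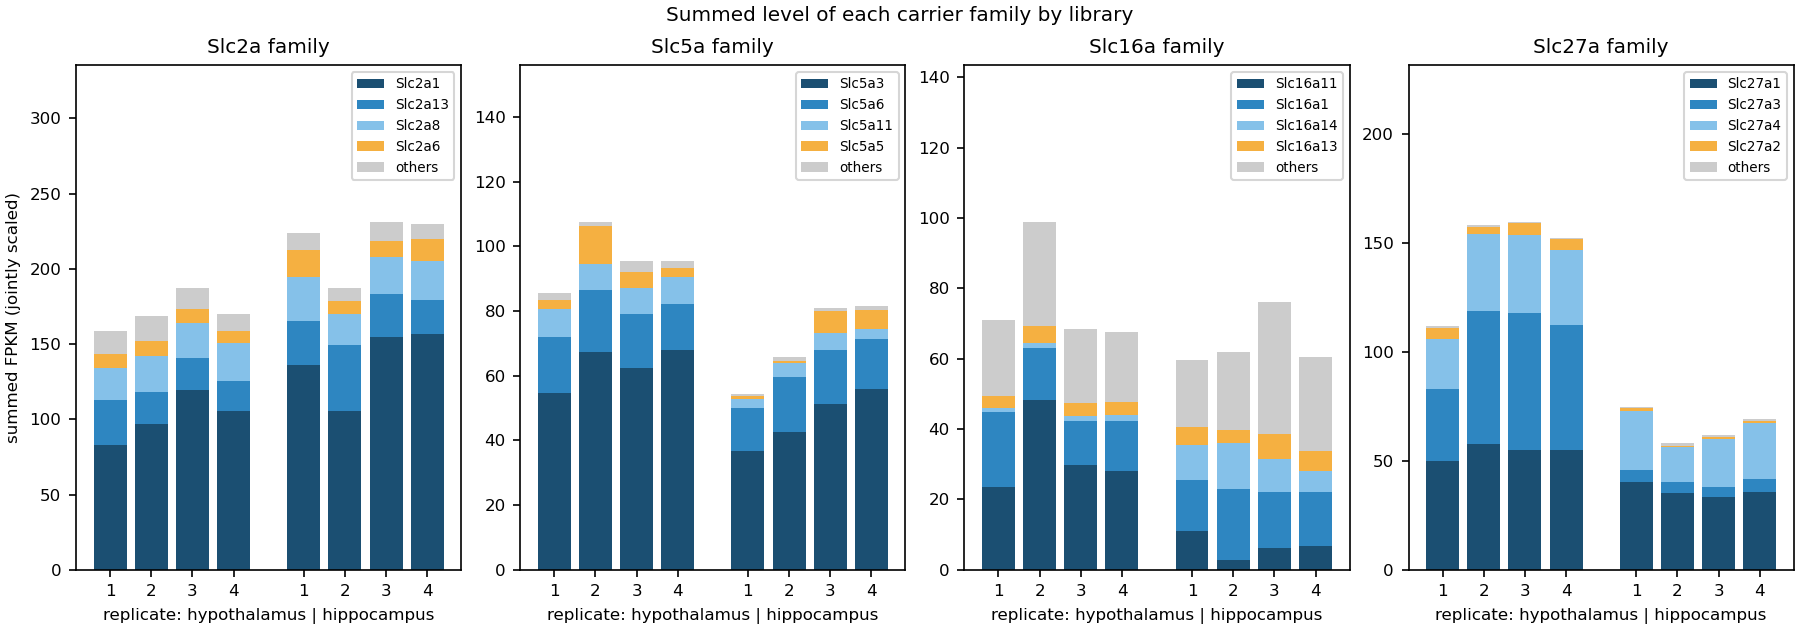
Summed FPKM of each carrier family in each library (bars, hypothalamus replicates 1 to 4 on the left and hippocampus replicates 1 to 4 on the right), stacked by 4 members with a high mean over both tissues and all others. Slc2a1 and Slc5a3 fill most of their families in both tissues, and the Slc27a sum is 112 to 160 FPKM in hypothalamus and 58.3 to 74.8 FPKM in hippocampus.

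The sodium-driven Slc5a carriers were led in both tissues by a myo-inositol carrier, and glucose carriers of this family were near 0. Slc5a3, encoding SMIT1, which brings myo-inositol into cells as an osmolyte, was at 54.6, 67.3, 62.4 and 67.9 FPKM in hypothalamus against 36.6, 42.7, 51.1 and 55.9 FPKM in hippocampus. Hypothalamus replicate 1 fell below hippocampus replicate 4, so the tissues overlapped, with a difference of 0.44 ± 0.15 (SE). The gene was split over a pair of neighbouring loci. The first was at 41.7 to 58.6 FPKM in hypothalamus and 35.7 to 55.5 FPKM in hippocampus, and the second at 9.28 to 12.8 FPKM in hypothalamus and 0.40 to 1.47 FPKM in hippocampus, so only the second separated the tissues. Slc5a11, encoding SMIT2, another myo-inositol carrier, was at 8.55, 8.33, 7.82 and 8.15 FPKM in hypothalamus against 2.87, 4.18, 5.31 and 3.27 FPKM in hippocampus. Its libraries did not overlap, and the difference of 0.93 ± 0.16 (SE) stayed just under the limit. The limit was passed with deposited values (1.13), upper-quartile scaling (1.03), a pseudocount of 0.1 (1.09) and without hippocampus replicate 3 (1.06), settings that called 18.1%, 15.7%, 16% and 13.5% of all genes higher. The 10 oligodendrocyte markers summed to 5644 to 9374 FPKM in hypothalamus and 4394 to 6366 FPKM in hippocampus, with 1 higher and 9 neither, and their part was not tested.

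Among 10 compared genes of inositol and choline handling, 3 stood higher in hypothalamus, 1 lower and 6 neither, and their median difference was 0.12. Of all genes, 13.3% were higher and 13.4% lower. The lower one was Impa1, at 13.3 ± 3.55 FPKM in hypothalamus and 30.7 ± 8.73 FPKM in hippocampus. Isyna1, which makes inositol phosphate from glucose 6-phosphate, was at 147 ± 15.3 FPKM in hypothalamus and 13.0 ± 3.17 FPKM in hippocampus, Chkb, a choline kinase gene, was at 22.8 ± 2.57 FPKM in hypothalamus and 9.42 ± 0.41 FPKM in hippocampus, and Ache, encoding acetylcholinesterase, at 136 ± 18.5 FPKM in hypothalamus and 65.7 ± 7.19 FPKM in hippocampus. Miox, which breaks down myo-inositol and is named here after its values were seen, did not exceed 0.134 FPKM in 7 libraries and was at 14.8 FPKM in hippocampus replicate 4. Slc5a7, the choline carrier of cholinergic terminals, was at 1.78, 0.75, 2.58 and 1.64 FPKM in hypothalamus against 0.38, 1.05, 0.58 and 0.61 FPKM in hippocampus, and hypothalamus replicate 2 overlapped the hippocampus libraries. Slc5a6, encoding the carrier of biotin and pantothenate, was at 16.9 ± 1.93 FPKM in hypothalamus and 15.6 ± 1.65 FPKM in hippocampus. The glucose carriers SGLT1 and SGLT2, encoded by Slc5a1 and Slc5a2, did not exceed 0.12 and 0.087 FPKM in any library. Including them, 7 Slc5a members had no mean of 1 FPKM in either tissue, the highest single value being 0.57 FPKM for Slc5a8 in hippocampus replicate 4. Among these 7, Slc5a10 was at 0.31 to 0.50 FPKM in hypothalamus and 0 to 0.047 FPKM in hippocampus, without overlap. That sum includes a locus listed for hypothalamus only, at 0.21 to 0.42 FPKM. The locus listed for both tissues, between Epn2 and Prpsap2, was at 0 to 0.27 FPKM in hypothalamus and overlapped the hippocampus libraries. The family summed to 96.0 ± 9.06 FPKM in hypothalamus and 70.7 ± 13.2 FPKM in hippocampus, a difference of 0.45 ± 0.15 (SE) without overlap. With only genes of 1 locus in each table, which leaves out Slc5a3, the difference was 0.38 and the tissues overlapped.

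The classical lactate carriers of the Slc16a family did not differ by the limit used. Slc16a1, encoding MCT1 of endothelium and glia, was at 21.4, 14.8, 12.5 and 14.2 FPKM in hypothalamus against 14.7, 20.1, 15.9 and 15.3 FPKM in hippocampus, with a difference of -0.08 ± 0.18 (SE). A single library stood highest in each tissue, and these were different replicate numbers. Slc16a7, encoding MCT2, the high-affinity carrier of neurons, was at 3.32, 1.98, 1.63 and 1.96 FPKM in hypothalamus against 4.88, 5.88, 3.38 and 4.11 FPKM in hippocampus. The tissues did not overlap, by a narrow gap between 3.32 and 3.38 FPKM, and the difference was -0.79 ± 0.21 (SE), under the limit, which it passed at -1.03 with a pseudocount of 0.1, where 15.3% of all genes were lower. The 8 neuron markers summed to 1368 to 1651 FPKM in hypothalamus and 2396 to 2911 FPKM in hippocampus, with 1 higher and 3 lower, and their part in Slc16a7 was not tested. Slc16a3, encoding MCT4 of astrocytes, was at 0.79 to 1.95 FPKM in hypothalamus and 0.28 to 0.85 FPKM in hippocampus and was below the level compared. It was summed over 2 loci in hypothalamus and had 1 in hippocampus.

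Most genes that work beside these carriers were not called either, as was true of all genes, of which 13.3% were higher and 13.4% lower. Of 17 compared genes of lactate, pyruvate and ketone handling, 2 passed as higher in hypothalamus, 2 as lower and 13 as neither, and the median was -0.16. Bsg, encoding basigin, which brings MCT1 and MCT4 to the surface, was at 995 ± 258 FPKM in hypothalamus and 642 ± 127 FPKM in hippocampus and was not called. Pdk3, an inhibitor of pyruvate dehydrogenase, was lower at 7.66 ± 0.96 FPKM in hypothalamus against 21.8 ± 1.40 FPKM in hippocampus. For hexose use, 2 of 16 compared genes were higher, 1 was lower and 13 passed neither way, and the median was 0.04. Pfkm, a phosphofructokinase, was lower at 138 ± 3.19 FPKM in hypothalamus against 511 ± 62.8 FPKM in hippocampus, and Aldoa, the most abundant, was at 858 ± 41.6 FPKM in hypothalamus and 1321 ± 393 FPKM in hippocampus. Khk, encoding ketohexokinase, which starts fructose breakdown, appeared in the hippocampus table, at 4.997, 1.73, 4.53 and 5.19 FPKM as deposited, and was not compared.

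Slc16a14 was lower in hypothalamus, the only called member in that direction. This MCT family member was at 1.17, 1.50, 1.57 and 1.65 FPKM in hypothalamus against 9.69, 13.2, 9.30 and 6.15 FPKM in hippocampus. The mean in hippocampus was 6.51 times that in hypothalamus, the difference was -2.06 ± 0.21 (SE), and the closest libraries, at 1.65 and 6.15 FPKM, were well apart. The gene had 1 locus in each table.

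Slc16a11 was higher in hypothalamus only through 1 of its 2 loci. Summed, it was at 23.6, 48.3, 29.7 and 28.0 FPKM in hypothalamus against 10.9, 2.84, 6.28 and 6.79 FPKM in hippocampus, a difference of 2.18 ± 0.40 (SE). The locus listed after Clec10a was at 23.0, 46.5, 27.4 and 25.4 FPKM in hypothalamus against 8.99, 0.97, 3.64 and 5.01 FPKM in hippocampus. The locus listed beside Slc16a13, the neighbour of Slc16a11 in the RefSeq table (assembly GRCr8), was at 0.58, 1.82, 2.31 and 2.58 FPKM in hypothalamus against 1.94, 1.86, 2.63 and 1.79 FPKM in hippocampus. Taken from the locus beside Slc16a13 alone, an alternative chosen after the values were seen, the difference was -0.17 and the gene was not called. Which transcripts the other locus holds was not tested. In human genetics SLC16A11 is known from a risk locus of type 2 diabetes, which also holds SLC16A13. Slc16a13 itself was at 3.82 ± 0.55 FPKM in hypothalamus and 5.38 ± 1.51 FPKM in hippocampus, with overlap. The summed Slc16a level of 76.5 ± 15.0 FPKM in hypothalamus and 64.5 ± 7.82 FPKM in hippocampus overlapped, and its difference of 0.23 ± 0.15 (SE) turned to -0.37 with Slc16a11 taken from the locus beside Slc16a13 and to -0.70 with genes of 1 locus only.

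**Figure D4:**
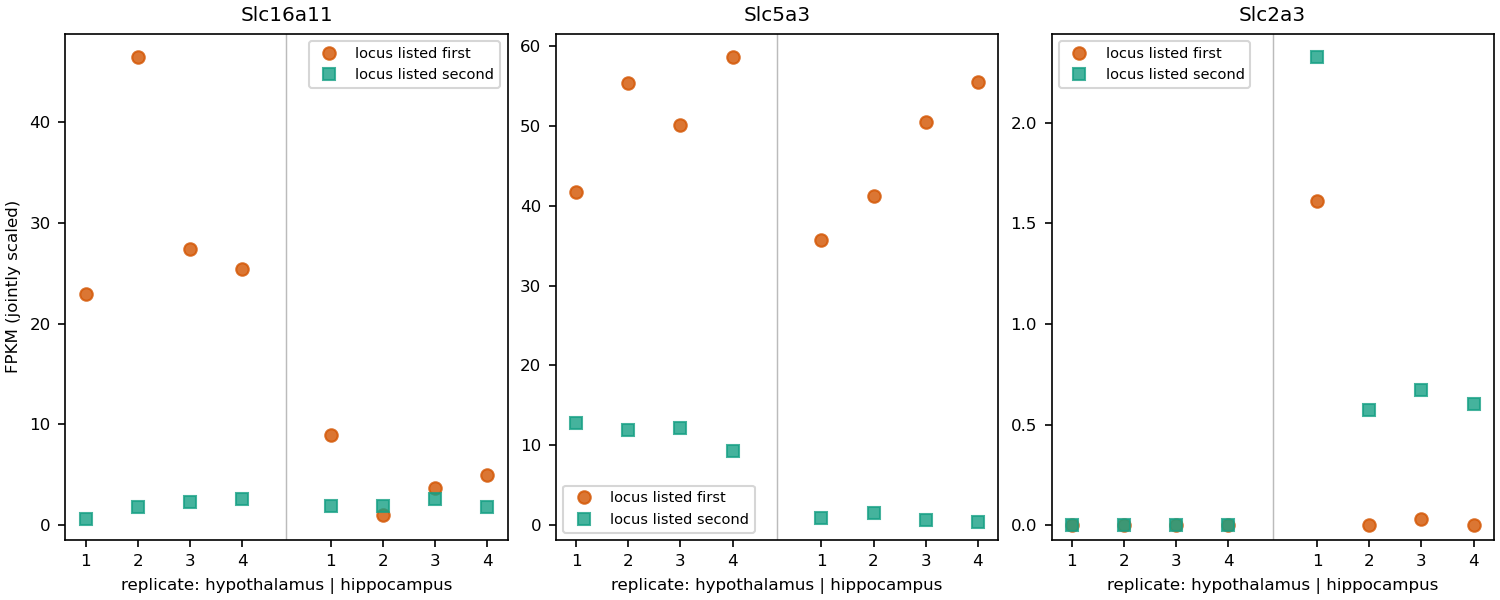
FPKM at each of the 2 loci of Slc16a11, Slc5a3 and Slc2a3 in each library (circles for the locus listed first in the table, squares for the second; hypothalamus replicates on the left of each panel, hippocampus on the right). The tissues differ at the first locus of Slc16a11 and the second locus of Slc5a3, and both loci of Slc2a3 are listed at 0 in hypothalamus.

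A set of carriers varied between hippocampus libraries together with genes of the choroid plexus, the tissue that secretes cerebrospinal fluid. The 9 choroid plexus markers in both tables summed to 37.2, 121, 43.3 and 44.0 FPKM in hypothalamus libraries 1 to 4 and to 60.5, 82.8, 6936 and 5171 FPKM in hippocampus libraries 1 to 4. Ttr, encoding transthyretin, made up most of this, at 6638 and 4990 FPKM in hippocampus replicates 3 and 4. Otx2, also on the list, was at 0 in every library of both tissues, and none of the other 8 was at 0 throughout a tissue. Hippocampus replicates 3 and 4 stood apart from replicates 1 and 2 in these genes.

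The carriers in which these replicates stood out most were Slc16a8, Slc5a5, Slc16a12 and Slc2a12. Slc16a8, encoding MCT3, known from the basolateral membranes of retinal pigment epithelium and choroid plexus, was at 0.76, 0.42, 0.41 and 0.34 FPKM in hypothalamus against 0.092, 0.073, 3.89 and 2.33 FPKM in hippocampus. The lower of hippocampus replicates 3 and 4 was 25.4 times the higher of replicates 1 and 2. Slc5a5, encoding the sodium-iodide symporter known from the thyroid, was at 2.82, 11.5, 5.17 and 2.88 FPKM in hypothalamus against 0.89, 0.79, 6.80 and 5.79 FPKM in hippocampus. In hippocampus the same ratio was 6.52, and in hypothalamus Slc5a5 was highest in replicate 2, the library with the highest Ttr there, 76.9 FPKM against 9.35 to 15.4 FPKM in the other 3. The choroid plexus markers were mixed there, as Aqp1, Slc4a5, Kcnj13 and Sostdc1 were also highest in replicate 2, but Kl in replicate 3 and Prlr and Clic6 in replicate 1. Slc5a5 in that library was above hippocampus replicates 3 and 4, where Ttr was at 6638 and 4990 FPKM. Slc16a12, which carries creatine, was at 2.46, 4.15, 2.61 and 2.94 FPKM in hypothalamus against 1.08, 1.54, 5.36 and 3.13 FPKM in hippocampus, a ratio of 2.03. Slc2a12, encoding GLUT12, was at 6.97, 7.33, 3.58 and 3.62 FPKM in hypothalamus against 0.83, 1.55, 4.80 and 2.93 FPKM in hippocampus, a ratio of 1.88. Unlike Slc5a5, Slc2a12 was high in replicates 1 and 2 of hypothalamus.

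Replicates 3 and 4 were the highest hippocampus libraries for 9 of the 27 members and for 16.5% of all genes compared. Among the other 5 of the 9 were Slc5a3, Slc16a6, Slc2a1 and Slc16a13, with ratios of 1.05 to 1.20. With replicates 3 and 4 of hippocampus left out, chosen after these values were seen, 6 members were higher in hypothalamus and 2 lower, as Slc2a12 (1.50), Slc5a5 (1.66) and Slc5a11 (1.04) joined those higher and Slc16a7 (-1.01) those lower. Of all genes, 15.5% were then higher and 14.3% lower. The part of choroid plexus RNA in these values was not tested.

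The promoters of Slc5a5 (build GRCr8, chr16:18580455-18580754, plus strand) and Slc16a12 (chr1:241621667-241621966, minus strand) are shown as those of carriers that were both highest in hippocampus replicates 3 and 4. Capitals mark GGGCGG, the GC box, and TAATCC, the core letters bound by OTX-type homeodomain factors, each searched on both strands; no printed match overlaps another.
Slc5a5: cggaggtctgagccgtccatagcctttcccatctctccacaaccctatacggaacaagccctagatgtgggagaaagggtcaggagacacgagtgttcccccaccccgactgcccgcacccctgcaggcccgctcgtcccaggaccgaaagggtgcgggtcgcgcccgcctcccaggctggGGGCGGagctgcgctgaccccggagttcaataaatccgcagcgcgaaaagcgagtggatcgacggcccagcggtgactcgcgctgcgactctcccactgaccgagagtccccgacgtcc
Slc16a12: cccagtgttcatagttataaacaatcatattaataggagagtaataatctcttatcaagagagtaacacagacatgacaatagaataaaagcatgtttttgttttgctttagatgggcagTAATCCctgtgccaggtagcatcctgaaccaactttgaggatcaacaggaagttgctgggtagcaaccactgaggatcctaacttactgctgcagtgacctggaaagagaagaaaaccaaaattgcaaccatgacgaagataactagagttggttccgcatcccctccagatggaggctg

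Slc16a12 held 1 TAATCC, which 7.17% of all 33469 promoters and 3 of the 32 member promoters held. Slc5a5, Slc16a8 and Slc2a12 held none, so the motif was not shared by the 4 carriers. A match is a description of letters and no evidence of binding.

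**Figure D5:**
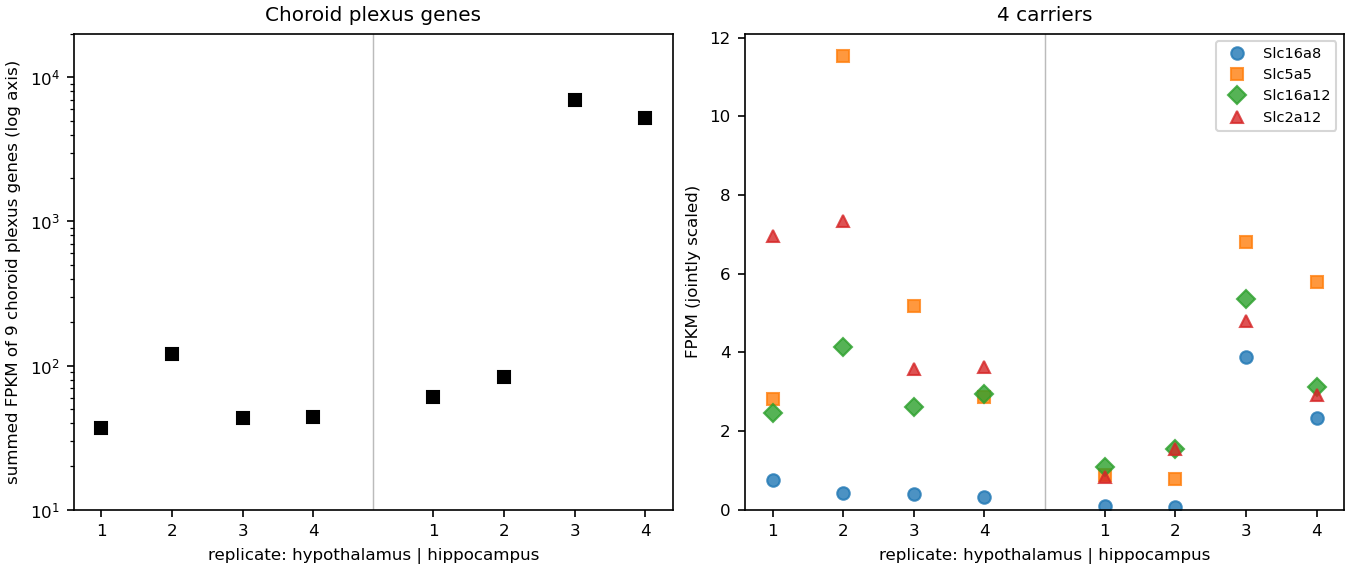
Left, summed FPKM of 9 choroid plexus genes on a log axis; right, FPKM of Slc16a8, Slc5a5, Slc16a12 and Slc2a12, per library (hypothalamus replicates on the left of each panel, hippocampus on the right). Hippocampus replicates 3 and 4 are high for the choroid plexus genes, at 6936 and 5171 FPKM, and are the highest hippocampus libraries for all 4 carriers.

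The last Slc16a members were low and overlapped. Slc16a6, known in zebrafish as a carrier of ketone bodies out of the liver, was at 3.89 ± 0.75 FPKM in hypothalamus and 3.46 ± 0.93 FPKM in hippocampus. Its hypothalamus value includes a locus listed for that tissue only, at 0.76 to 1.28 FPKM. The locus listed for both tissues, between Rgs9 and Wipi1, was at 2.02 to 3.66 FPKM in hypothalamus and 2.26 to 4.45 FPKM in hippocampus. Slc16a4 was at 1.37 ± 0.53 FPKM in hypothalamus and 1.51 ± 0.56 FPKM in hippocampus. Slc16a10, which carries aromatic amino acids, and Slc16a5 did not exceed 0.72 FPKM in any library.

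The fatty acid carriers of the Slc27a family had a median difference of 1.11 over 4 compared members, against 0.14 in Slc2a, 0.67 in Slc5a and -0.11 in Slc16a. Slc27a3, encoding the acyl-CoA synthetase FATP3, was at 33.0, 61.2, 62.8 and 57.8 FPKM in hypothalamus against 5.27, 4.93, 4.47 and 5.71 FPKM in hippocampus. The mean was 10.5 times as high in hypothalamus, with a difference of 3.13 ± 0.22 (SE), and no hippocampus library came near the lowest of hypothalamus. The gene had 1 locus in each table. Slc27a2, encoding FATP2, a very-long-chain acyl-CoA synthetase best known from liver and kidney, was at 5.03, 3.38, 5.40 and 5.09 FPKM in hypothalamus against 1.21, 0.44, 0.88 and 0.76 FPKM in hippocampus. Its mean was 5.72 times as high in hypothalamus, with a difference of 1.65 ± 0.18 (SE) and no overlap.

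The promoter of Slc27a3 (build GRCr8, chr2:178155454-178155753, minus strand) is shown for the carrier with the largest difference of the 27. Its 3 copies of GGGCGG, counted on both strands, are in capitals (CCGCCC where it lies on the other strand); 33.1% of all promoters held at least 1, as did 10 of the 32 members.
Slc27a3: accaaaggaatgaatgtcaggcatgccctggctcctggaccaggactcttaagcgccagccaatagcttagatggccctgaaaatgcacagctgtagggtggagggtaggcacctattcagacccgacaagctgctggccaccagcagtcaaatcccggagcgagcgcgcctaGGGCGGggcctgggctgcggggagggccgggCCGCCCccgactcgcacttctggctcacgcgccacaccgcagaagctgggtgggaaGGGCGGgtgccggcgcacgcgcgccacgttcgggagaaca

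The other 2 Slc27a genes at these levels were under the limit. Slc27a1, encoding FATP1 of brain endothelium and neurons, was at 49.9, 57.7, 55.2 and 54.8 FPKM in hypothalamus against 40.5, 35.2, 33.4 and 35.8 FPKM in hippocampus. All hypothalamus libraries were above all hippocampus libraries, with a difference of 0.58 ± 0.07 (SE). Slc27a4, encoding FATP4, was at 23.1, 35.3, 35.9 and 34.3 FPKM in hypothalamus against 27.1, 16.2, 22.0 and 26.1 FPKM in hippocampus, and overlapped because hypothalamus replicate 1 was low. Slc27a5 and Slc27a6 had no mean above 0.626 FPKM in either tissue. The family summed to 112, 158, 160 and 152 FPKM in hypothalamus and to 74.8, 58.3, 61.7 and 69.3 FPKM in hippocampus, a difference of 1.12 ± 0.15 (SE) with no overlap. Slc27a3 supplied 36.4% ± 4.60 of it in hypothalamus and 7.75% ± 0.70 in hippocampus, where Slc27a1 supplied 55.1% ± 3.73.

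Most related genes of fatty acid uptake, binding and activation were not called. Of 15 compared, 1 passed as higher in hypothalamus, 1 as lower and 13 as neither, and the median was -0.12. Of all genes, 13.3% were higher and 13.4% lower. Some of the 13 had libraries that did not overlap between the tissues, such as Cpt2, with more in hypothalamus, and Acsl6, with less. Acsbg1, an acyl-CoA synthetase of astrocytes, was higher at 130 ± 5.63 FPKM in hypothalamus against 60.5 ± 7.40 FPKM in hippocampus, and Acsl5, another acyl-CoA synthetase, was lower at 11.4 ± 1.84 FPKM in hypothalamus against 28.7 ± 5.37 FPKM in hippocampus. Dbi, the acyl-CoA binding protein with the highest level on the list, was at 209 ± 14.0 FPKM in hypothalamus and 238 ± 36.6 FPKM in hippocampus. The 9 astrocyte markers summed to 2248 to 2890 FPKM in hypothalamus and 2692 to 3102 FPKM in hippocampus, with 3 higher, 1 lower and none at 0. The lower one, Slc1a2, was at 249 ± 25.8 FPKM in hypothalamus and 762 ± 252 FPKM in hippocampus and set the order of these sums. The median difference of the astrocyte markers was 0.53, the other way. The 9 ependymal and tanycyte markers, which line the ventricle, summed to 343 to 506 FPKM in hypothalamus and 97.7 to 138 FPKM in hippocampus, with 6 of 8 compared higher and 2 lower. Vim, among those higher, made up most of the hypothalamus sums, at 280 to 438 FPKM, against 25.9 to 65.7 FPKM in hippocampus. The gap between these sums is therefore mainly that of Vim and not of the whole set. Rax and Gpr50, which mark tanycytes, were at 0 in 3 of 4 hippocampus libraries, while the 2 lower were Dio2, which also marks tanycytes, at 3.76 ± 0.45 FPKM in hypothalamus and 8.90 ± 2.17 FPKM in hippocampus, and Foxj1, of ciliated cells, at 20.4 ± 5.65 FPKM in hypothalamus and 54.8 ± 2.75 FPKM in hippocampus. The part of these cells in the Slc27a values was not tested.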

How the data were processed

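Polyadenylated RNA of hypothalamus and hippocampus was sequenced by Illumina, per the labels. FPKM values deposited by the authors fill 2 tables, 1 for each tissue, each value with a status beside it; TopHat, TopHat2, Bowtie, Bowtie2, Cufflinks, Cuffdiff and build rn5 are named in the submitters' processing notes, without versions or options. Whether counting used strand is not given in the sources used here, so overlapping and antisense genes are uncertain.

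FPKM were summed over loci of a symbol and divided by joint median-of-ratios factors (1.07 to 1.12 for hypothalamus, 0.892 to 0.950 for hippocampus) with Python 3.11.15, pandas 2.3.3 and numpy 2.4.6. Differences were of log2(FPKM + 1), for symbols with a mean of at least 1 FPKM. No test was run between the tissues, because tissue and table coincide. The call rule was also run on simulated tables, which cannot tell tissue from table. Low-value steps were counted under 0.05 FPKM with a tolerance of 0.01 (natural log); 85.8 to 92.0% of loci lay on them in pairs among replicates 2 to 4 and 7.38 to 10.6% in pairs with replicate 1. Named members had a mean of at least 1 FPKM in a tissue, besides some low members named after their values were seen. Of each list of related genes, the member at the highest level and the 2 called ones that differed most are named, besides a few others. A member and some listed genes are not reported here. Members, lists and rules were chosen with earlier results of these data known. Of 6 blood cell markers 2 were in both tables, summing to 3.36 to 19.9 FPKM in hypothalamus and 1.73 to 5.73 FPKM in hippocampus, and Alas2, the only one compared, was neither higher nor lower.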

Additional observations from a re-analysis of the deposited data

Results flagged for a closer look

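Each group of 4 libraries was examined for a lone value far from the other 3, over 30 members and 4 family sums, 67 groups in all. The gap to the nearest library, relative to the range, passed Dixon's critical value in 8 of them. Chance flags about 1 in 20 groups.

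Hypothalamus replicate 1 was low for 2 fatty acid carriers and for the family sum, but not for Slc27a2, at 5.03 FPKM there and 3.38 to 5.40 FPKM in the other 3. Slc27a3 was at 33.0 FPKM there and at 57.8 to 62.8 FPKM in the other 3, Slc27a4 at 23.1 FPKM and 34.3 to 35.9 FPKM, and the Slc27a sum at 112 FPKM and 152 to 160 FPKM. Replicate 1 is also the library without low-value steps shared with the others.

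Slc2a5 was at 7.04 FPKM in hypothalamus replicate 3 and at 4.15 to 4.30 FPKM in the other 3. Slc2a3 was at 3.94 FPKM in hippocampus replicate 1 and at 0.57 to 0.70 FPKM in the other 3. The Slc16a sum was 98.9 FPKM in hypothalamus replicate 2 and 67.6 to 70.9 FPKM in the other 3, and Slc16a11 was highest in the same library. It was 76.2 FPKM in hippocampus replicate 3 and 59.6 to 61.8 FPKM in the other 3, and this replicate had the highest choroid plexus sum. The Slc2a sum was 187 FPKM in hippocampus replicate 2 and 224 to 231 FPKM in the other 3. No explanation of these values was tested.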

How the results depend on the processing

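Under 19 alternatives, the 4 called members kept their direction and call with 1 exception, Slc16a11, which reversed to -0.17 with its locus beside Slc16a13 alone; it was not among the genes of 1 locus, and Slc27a2 was below a filter at a mean of 5 FPKM. Of 466 values of single members, 11 moved by more than the spread between libraries. With values as deposited, which placed the median of all genes at 0.18 in place of -0.04, the median of the members was 0.38 and the family differences were -0.11 (Slc2a), 0.68 (Slc5a), 0.46 (Slc16a) and 1.35 (Slc27a). The members' median was 0.020 without a filter and 0.019 with a filter at 5 FPKM. Members lower in hypothalamus numbered 2 with a pseudocount of 0.1 and 2 without a filter, where Slc2a3 joined. Leaving out hippocampus replicates 3 and 4 gave 6 higher, 2 lower, a median of 0.49 and an Slc5a difference of 0.67. The Slc16a difference was -0.70 with genes of 1 locus and -0.37 with Slc16a11 from the locus beside Slc16a13. The cause of these shifts was not tested, apart from the loci named. Without 1 library at a time, members higher in hypothalamus numbered 3 to 5, the 5 without hippocampus replicate 3, when Slc2a12 (1.22) and Slc5a11 (1.06) joined. Upper-quartile scaling gave 4 higher, as Slc5a11 (1.03) joined. Quantile normalisation, loci with status OK and replicate 1 of both tissues left out gave the same 3 higher and 1 lower. No paired analysis was possible because the result comes from no test, each tissue having a table normalised apart. The number of libraries and the unknown depth limit the low members most.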
